A study of Mus musculus with 200 samples.

Results

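The 39 genes described here encode the transporters and enzymes of glycolysis and the regulators and targets of the hypoxia response. They were listed by symbol, and all 39 were found among the 22033 genes of the count tables. Their RNA was measured by 3SEQ, which sequences the 3′ ends of polyadenylated RNA, in single whole mouse embryos at embryonic day 11.5, dissected free of membranes and placenta. F1 hybrid embryos came from reciprocal crosses of C57BL6/J (B6) and Castaneus (Cast) mice, with 8 embryos of B6 mothers and Cast fathers (B6 × Cast, litters 3 and 5) and 8 of Cast mothers and B6 fathers (Cast × B6, litters 1 and 2). N2 embryos came from backcrosses of F1 animals to B6. There were 89 from B6 mothers (B6 × F1, 17 litters) and 65 from F1 mothers (F1 × B6, 12 litters), so that an autosomal gene in an N2 embryo was either B6/B6 or B6/Cast. The F1 mothers had themselves had B6 mothers, so that mitochondria were of B6 origin in both N2 groups. No embryo was treated or kept at low oxygen, and the comparisons concern the mother, developmental stage (somite number), litter, sequencing lane and genotype.

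Glycolysis splits glucose to pyruvate in the cytoplasm. Glucose enters through the transporters Slc2a1 and Slc2a3, hexokinases trap it as glucose-6-phosphate, and phosphofructokinase commits it to the pathway. Lactate dehydrogenase then turns pyruvate into lactate, which leaves through the monocarboxylate transporters Slc16a1 and Slc16a3. The pyruvate dehydrogenase kinases (Pdk1, Pdk2 and Pdk3) inhibit pyruvate dehydrogenase and so hold back the oxidation of pyruvate in mitochondria. Hypoxia-inducible factor joins an oxygen-labile alpha subunit (Hif1a or Epas1) to a constant partner (Arnt). The prolyl hydroxylases Egln1 and Egln3 mark the alpha subunits for destruction when oxygen is present. The stabilised factor raises transcription of many glycolytic genes and of targets such as Vegfa, the endothelial growth factor. Midgestation mouse embryos develop at low oxygen and depend heavily on glycolysis.

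Depth ranged from 15703888 to 38234229 reads on genes in the F1 embryos and from 245220 to 5370322 in the N2 embryos. Levels are given as RPM, the count of a gene scaled to 1e+06 reads on genes. The F1 and N2 tables were normalised separately and no test was made across them. N2 libraries were pooled in 14 lanes (A to N) on 2 flowcells. Only B6 mothers were represented in 8 lanes, only F1 mothers in 5 and both in lane M, which held 8 embryos of F1 mothers and 1 with a B6 mother. Libraries of lanes J to N stood apart, since the lane medians of their embryos' rank correlation with the median N2 profile were 0.738 to 0.816, against 0.931 to 0.955 in lanes A to I. These lanes held 56 embryos, and the N2 calls are given with and without them. Embryos, not lanes, were counted as replicates. The p-values therefore treat embryos as independent. They do not allow for the likeness of embryos within a lane or litter, except where lane or litter is named in the test. In whole embryos, fewer cells of a type and less RNA per cell cannot be told apart. Summed markers of trophoblast and decidua were at most 23.5 RPM in any N2 embryo, with medians of 0.277 RPM for B6 mothers and 0.433 RPM for F1 mothers, and Prl3d1 and Prl2c2 were at 0 in every N2 embryo.

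Promoters of the members were examined for the core of the hypoxia response element, because the factor binds this core and its targets were among the genes measured. The motifs searched were ACGTG and GCGTG on both strands, which read CACGT and CACGC on the reverse strand, and a CACGTG palindrome counts on each strand. RefSeq (GRCm38.p6) gave 53 promoters for 36 of the 39 genes, each running from 250 bases before the start to 50 after it. Of these, 41 (77.4%) held at least 1 motif, compared with 14380 of all 32851 promoters (43.8%). ACGTG alone was present in 26 (49.1%) and in 19.6% of all promoters. Member promoters were also richer in CpG, with a median of 20 CpG dinucleotides against 7, and both motifs hold a CpG. The 5 promoters below belong to lactate dehydrogenase A (chr7:46845554-46845853, plus strand, 7 motifs), the glucose transporter Slc2a1 (chr4:119108495-119108794, plus strand, 2 motifs), Pdk1 (chr2:71872974-71873273, plus strand, 2 motifs), the ankyrin repeat gene Ankrd37 (chr8:45999801-46000100, minus strand, 4 motifs) and Pdk2 (chr11:95041322-95041621, minus strand, 2 motifs). The first 4 are established targets of the factor, and Pdk2 was the member most strongly correlated with somite number. Capitals mark the motifs.
Ldha: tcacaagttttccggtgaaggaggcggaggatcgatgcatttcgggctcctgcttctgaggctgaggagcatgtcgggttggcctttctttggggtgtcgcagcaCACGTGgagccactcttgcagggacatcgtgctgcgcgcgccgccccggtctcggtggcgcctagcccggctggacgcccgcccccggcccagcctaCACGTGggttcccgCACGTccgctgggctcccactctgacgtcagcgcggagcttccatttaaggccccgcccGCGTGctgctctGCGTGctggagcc
Slc2a1: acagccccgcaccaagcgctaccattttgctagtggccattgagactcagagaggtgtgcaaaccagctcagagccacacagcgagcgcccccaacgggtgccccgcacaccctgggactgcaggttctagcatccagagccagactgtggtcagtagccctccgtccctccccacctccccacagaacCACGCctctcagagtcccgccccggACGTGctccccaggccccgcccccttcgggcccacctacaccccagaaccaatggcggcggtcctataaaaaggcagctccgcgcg
Pdk1: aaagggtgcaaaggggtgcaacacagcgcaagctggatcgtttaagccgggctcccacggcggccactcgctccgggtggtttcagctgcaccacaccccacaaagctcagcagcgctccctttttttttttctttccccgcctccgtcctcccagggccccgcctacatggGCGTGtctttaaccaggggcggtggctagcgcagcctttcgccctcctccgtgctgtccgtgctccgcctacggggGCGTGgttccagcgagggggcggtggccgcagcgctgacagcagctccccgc
Ankrd37: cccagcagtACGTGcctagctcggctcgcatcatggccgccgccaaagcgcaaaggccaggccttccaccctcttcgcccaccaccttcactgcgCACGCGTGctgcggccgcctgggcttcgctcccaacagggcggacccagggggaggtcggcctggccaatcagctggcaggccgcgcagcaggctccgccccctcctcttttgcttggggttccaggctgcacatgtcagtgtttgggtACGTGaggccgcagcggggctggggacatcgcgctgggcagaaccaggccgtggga
Pdk2: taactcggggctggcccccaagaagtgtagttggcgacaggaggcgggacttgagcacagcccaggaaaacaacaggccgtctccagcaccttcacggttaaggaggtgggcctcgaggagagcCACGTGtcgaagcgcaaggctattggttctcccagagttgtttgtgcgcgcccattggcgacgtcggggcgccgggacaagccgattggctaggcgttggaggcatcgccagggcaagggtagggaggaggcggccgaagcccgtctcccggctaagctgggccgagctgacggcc
A match shows only that the letters are present in the window.

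The members spanned a wide range of RPM, as shown in the plot of all 39 levels. RPM are not divided by transcript length, and 3′ tags give reads near 1 end of the transcript, so levels of different genes are set side by side without ranking. Pyruvate kinase (Pkm2), which makes pyruvate and ATP in the last step of glycolysis, had 473 RPM in the lowest N2 embryo, a median of 1954 and 4628 in the highest. Aldolase A (Aldoa), which splits fructose-1,6-bisphosphate, had 30.9, 596 and 1498 RPM. Lactate dehydrogenase A (Ldha) had 78.6, 460 and 1520 RPM, and its partner Ldhb, the subunit that favours the reverse reaction, 0, 55.8 and 150 RPM. Among the glucose transporters, Slc2a1 had 20.02, 96.1 and 232 RPM and Slc2a3 0, 8.09 and 69.6 RPM. The lactate exporter Slc16a3 was measured at 68.5, 217 and 455 RPM, while Slc16a1 had a median of 2.83. Hexokinases Hk1 (0, 31.4 and 60.7 RPM) and Hk2 (3.95, 26.1 and 104 RPM) overlapped widely. Of the regulators, Arnt had a median of 22.7 RPM, Egln1 of 11.5, Egln3 of 10.3, Hif1a of 7.98 and Epas1 of 5.08. F1 medians lay inside the N2 range for all of these genes, from 1732 RPM for Pkm2 to 5.22 RPM for Slc16a1.

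Of the 39 genes, 31 had an N2 mean of at least 5 RPM and entered the tests of expression, compared with 10007 of all genes. The 8 others included enzymes that all cells use. Gapdh (glyceraldehyde-3-phosphate dehydrogenase) had 0, 4.01 and 11.1 RPM as lowest, median and highest N2 value. Pgk1 (phosphoglycerate kinase) had no read in 97 of 154 embryos, Pgam1 (phosphoglycerate mutase) in 47 and Eno1 (enolase) in 16. The authors discarded a read when its second-best hit lay within an edit distance of 3, so the last 500 bases of each transcript were searched for near copies in the genome (9 windows of 100 bases, at most 3 edits). Near copies were found for 13 members. All windows of Gapdh, Pgk1 and Eno1 had one, and Gapdh matched 132 other loci. The share was 88.9% for Pgam1 and Gpi1, 77.8% for Bnip3, 66.7% for Tpi1 and 55.6% for Ldha and Ldhb. Of the 13 members with a near copy 5 were under 5 RPM, and of the 26 without one 3 were (Aldoc, Adm and Car9). The levels of these 13 genes are therefore uncertain, and the part of near copies in the low counts was not tested. Genes outside the list were not searched, so the share of all genes with a near copy is not known. Bnip3, a mitophagy receptor, had no read in 69 embryos, Adm (adrenomedullin) in 50 and Car9 (carbonic anhydrase) in 91. A count of 0 allows up to 1.31 RPM at the median depth and 12.2 RPM in the shallowest library, counting error only.

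Levels differed between sequencing lanes. Of the variance of ranked RPM, the median member had 59.8% between lanes (all genes 59.7%), 61.3% between litters (59.9%) and 1.32% between the 2 kinds of mother (1.57%). Lanes A to I alone gave 47.5% between lanes (40.1% for all genes) and 5.59% between mothers (6.07%). A factor of 14 lanes takes a larger share than one of 2 kinds of mother by construction, so these shares are read only against those of all genes. The lane share ran from 29.9% for Pfkfb4 to 76.1% for Hif1a. Lane medians of Hif1a were 4.50 to 8.496 RPM in lanes A to I and 25.8 to 29.4 RPM in lanes J to N, without overlap. Of the 31 members 5 were higher in lanes J to N without overlap of lane medians (25% of all genes) and 1 was lower (8.36%). Besides Hif1a the higher ones were Slc16a1 (1.502 to 2.53 against 6.87 to 30.7 RPM), Pfkfb3 (1.80 to 2.98 against 6.202 to 30.1 RPM), Pdk3 (1.00 to 3.01 against 9.79 to 18.9 RPM) and Pfkp, the platelet phosphofructokinase (1.82 to 5.87 against 10.6 to 17.0 RPM). Eno2 was the lower one, with 9.83 to 19.2 RPM in lanes A to I and 5.68 to 8.77 RPM in lanes J to N. Lane medians of the other 25 members overlapped between the sets, such as those of Ldha (228 to 647 against 179 to 997 RPM), Pdk2 (36.1 to 89.5 against 21.4 to 60.5 RPM) and Hk1 (24.04 to 47.5 against 8.19 to 26.96 RPM). Vegfa had lane medians of 13.1 to 25.5 RPM in lanes A to I and 23.9 to 68.2 RPM in lanes J to N.

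Embryos of B6 and F1 mothers were compared to ask whether the mother's genotype goes with expression in her offspring. Tpi1, Kdm3a, Eno3 and Gpi1 were higher in embryos of F1 mothers, and no member was called higher with B6 mothers. These were 4 of 30 autosomal members tested (Mann-Whitney U test, Bonferroni-adjusted p under 0.01), where 5.03% of all 9733 genes were called, 4.28% higher with F1 mothers and 0.75% with B6 mothers. The median log2 ratio of B6 to F1 mothers was -0.01 over the members and 0.03 over all genes. Triosephosphate isomerase (Tpi1, mm9 chr6:124760604-124764314) had 14.5, 184 and 430 RPM as lowest, median and highest value with B6 mothers and 10.3, 321 and 775 RPM with F1 mothers. The groups overlapped, and the means of 197 and 380 RPM differed 1.93-fold (adjusted p = 0.000175). The histone demethylase Kdm3a (mm9 chr6:71538968-71582899), a target of the hypoxia factor, had 0, 10.4 and 80.9 RPM against 0.637, 38.7 and 80.9 RPM, a 2.14-fold difference in means (adjusted p = 0.000449). For Eno3, the muscle enolase (mm9 chr11:70470704-70476015), the values were 27.5, 121 and 274 RPM against 59.99, 165 and 291 RPM (1.35-fold, adjusted p = 0.000587). Glucose-6-phosphate isomerase (Gpi1, mm9 chr7:34987141-35015308) gave 0, 4.14 and 43.7 RPM against 1.29, 11.1 and 32.3 RPM (1.58-fold, adjusted p = 0.00505). Muscle markers summed to a median of 2310 RPM with B6 mothers and 1907 RPM with F1 mothers (10 of 10 markers present). Cartilage markers summed to 883 and 721 RPM. The part of these cell types in the differences between mothers was not tested.

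Over litters the differences kept their direction but were not called. Medians of litter means with B6 and F1 mothers were 171 and 277 RPM for Tpi1, 14.2 and 37.7 RPM for Kdm3a, 125 and 160 RPM for Eno3 and 6.07 and 11.9 RPM for Gpi1. With litter means as the unit (17 and 12 litters), 0 of 30 members and 0 of 9733 genes were called by the Mann-Whitney U test, with 4 members and 1279 genes at an unadjusted p under 0.05. Within flowcell 1 only Tpi1 was called (2.18% of all genes), and within flowcell 2 no member was (0.247%), although 25 of 30 had an unadjusted p under 0.05, as had 61.7% of all genes. On flowcell 2 all 20 embryos of F1 mothers and 36 of 59 with B6 mothers were in lanes J to N. Adjusting by Benjamini-Hochberg instead (under 0.05) gave 9 members (31.6% of all genes), and edgeR with flowcell and somite number as covariates 17 (62.1%). A limma voom fit with flowcell and somite number and with litter as a random block called Slc16a1, Kdm3a, Gpi1 and Eno3 (17.5% of all genes) and not Tpi1. The call of Eno3 was lost with TMM scaling, and that of Gpi1 with all labelled embryos. In lanes A to I Tpi1, Kdm3a, Eno3 and Gpi1 were called (13.4% of all genes), and the means were 196 and 457 RPM for Tpi1 and 9.69 and 39.4 RPM for Kdm3a. In lanes J to N the means were 198 and 208 RPM for Tpi1, 29.3 and 33.9 for Kdm3a, 119 and 137 for Eno3 and 12.8 and 13.1 for Gpi1. Lanes did not sort cleanly by mother. For Kdm3a the lane medians were 2.49, 3.24, 2.90 and 5.00 RPM in the B6-mother lanes A, B, H and I and 44.0 RPM in lane F, also of B6 mothers. In the F1-mother lanes they were 3.79 RPM in lane C but 56.8, 44.8 and 58.0 RPM in lanes D, E and G. Tpi1 followed the same order, with 109 to 196 RPM in lanes A, B, C, H and I and 399 to 647 RPM in lanes D to G. Because 13 of 14 lanes held 1 kind of mother, lane and mother cannot be told apart beyond this.

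**Figure D1:**
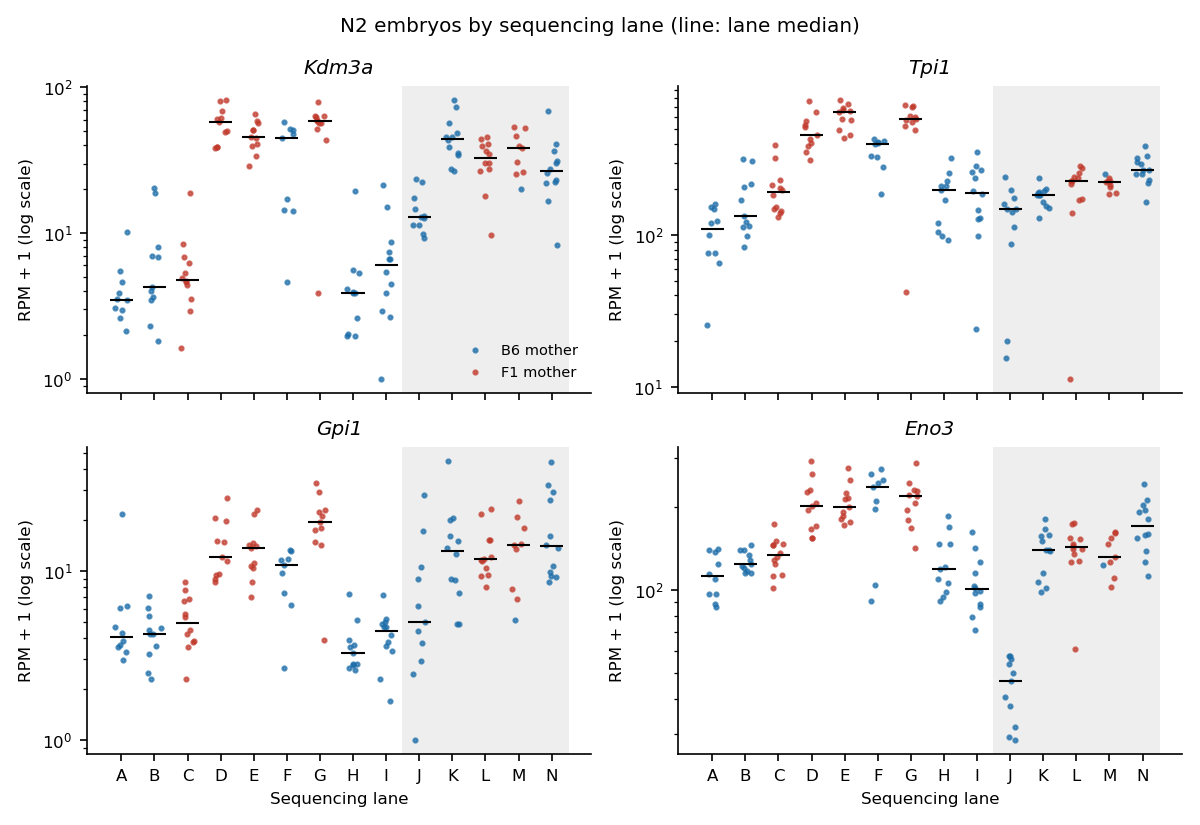
RPM + 1 on a log axis of Kdm3a, Tpi1, Gpi1 and Eno3 in each of 154 N2 embryos by sequencing lane, coloured by mother, with lane medians as bars and lanes J to N shaded. Lane F (B6 mothers) sits with the high lanes D, E and G, and lane C (F1 mothers) with the low lanes for Kdm3a.

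Among other genes of the same pathways, 0 of 23 further glycolysis, glycogen and pyruvate genes were called by the Mann-Whitney U test. By edgeR 5 were called (25.4% of all genes) and by DESeq2 5 (27.9% of all genes). Of 28 further hypoxia genes 3 were called. Angptl4, an inhibitor of lipoprotein lipase, averaged 89.7 RPM with B6 mothers and 58.9 RPM with F1 mothers, the opposite direction from the 4 members. Ero1l, an oxidoreductase of the endoplasmic reticulum, averaged 6.22 and 11.8 RPM and the mitochondrial protein Fam162a 106 and 168 RPM.

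The question of stage was addressed with somite number, which was recorded for 147 N2 embryos and ran from 42 to 57. Pdk2, Eno2 and Hk1 rose with somite number and 6 members fell (Eno3, Ldha, Hk2, Aldoa, Kdm3a and Slc2a3). These 9 were called among 31 members by Spearman's correlation at a Benjamini-Hochberg q under 0.05, where 22% of all 10007 genes were called, 14.1% rising and 7.97% falling. Pdk2, a kinase that inhibits pyruvate dehydrogenase (mm9 chr11:94887572-94902668), had a median of 39.7 RPM in 21 embryos with 45 or fewer somites, 62.4 RPM in 112 embryos with 46 to 52 and 72.96 RPM in 14 embryos with 53 or more (rho = 0.444, q = 7.31e-07; Pearson's r on log2(RPM + 1) = 0.451, permutation p = 1e-05, the lowest possible with 100000 resamples). When the 2 embryos of most extreme somite number were dropped, r was 0.406, and in lanes A to I rho was 0.624. The neuronal enolase Eno2 had medians of 10.0, 11.3 and 18.6 RPM in the same bins (rho = 0.380, q = 5.05e-05; r = 0.307, permutation p = 0.00023, and 0.264 without 2 embryos). Its rho was 0.410 and 0.468 within the flowcells. For Hk1 the medians were 25.4, 30.3 and 42.6 RPM (rho = 0.306, q = 0.002), but r was only 0.108 (permutation p = 0.195), so that the relation was seen in the ranks and not in Pearson's r.

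Eno3 fell, with medians of 202, 135 and 118 RPM (rho = -0.388, q = 3.15e-05; r = -0.376, permutation p = 1e-05, and -0.373 without 2 embryos). Hk2, the insulin-responsive hexokinase (mm9 chr6:82675019-82724448), had medians of 48.6, 25.5 and 21.4 RPM (rho = -0.267, q = 0.00894; r = -0.283, permutation p = 0.00052, and -0.324 without 2 embryos). Within flowcell 1 its rho was -0.487 and within flowcell 2 -0.0542. Ldha had medians of 708, 452 and 409 RPM (rho = -0.269, q = 0.00836) and Aldoa of 948, 536 and 589 RPM (rho = -0.227, q = 0.0312). Pearson's r was -0.284 for Ldha and -0.279 for Aldoa, with permutation p of 0.00064 and 0.00059, and -0.259 and -0.26 without 2 embryos. Kdm3a (rho = -0.217, q = 0.0406; r = -0.224, permutation p = 0.00651, and -0.195 without 2 embryos) and Slc2a3 (rho = -0.210, q = 0.0495; r = -0.251, permutation p = 0.0023, and -0.216 without 2 embryos) lay just inside the threshold.

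Not all of these held within lanes. After lane was regressed out of the ranks 8 members were called (11.5% of all genes). Eno2, Hk1, Pdk2 and Ndrg1 rose, while Eno3, Pkm2 (rho = -0.279), Pfkl (-0.290) and Slc16a3 (-0.377) fell. Lane-regressed rho was -0.091 for Ldha, -0.0363 for Aldoa, -0.0203 for Kdm3a, -0.124 for Slc2a3 and -0.169 for Hk2, none of which was called. In lanes A to I 7 members were called (21.5% of all genes), of which Eno2, Hk1, Pdk2, Hk2 and Eno3 were also called over all lanes. There the median of Hk2 was 57.3, 23.9 and 20.5 RPM in the 3 bins and that of Pdk2 42.9, 70.1 and 86.6 RPM. With litter means no member was called by Spearman's correlation (1.74% of all genes), and in embryos of B6 mothers alone 18 were (51.6%). Summed RNA of cell type markers also differed between the stage bins. From the lowest to the highest bin the summed erythroid markers went from a median of 85705 to 62337 RPM (9 of 10 markers present), neuronal markers from 1350 to 1585 RPM (9 of 10), muscle markers from 2048 to 2478 RPM (10 of 10) and fetal liver markers from 907 to 1813 RPM (8 of 8). The part of these cell types in the stage results was not tested. The lane-centred rank correlation of Pdk2 was 0.36 over all lanes and 0.38 in lanes A to I with the endothelial sum, and 0.30 and 0.23 with the fetal liver sum. Eno2 had 0.48 and 0.49 with muscle, 0.34 and 0.49 with cartilage, 0.36 and 0.30 with fetal liver and 0.07 and 0.40 with neuronal markers. Hk1 had 0.38 and 0.29 with fetal liver and 0.09 and 0.42 with neuronal markers. With the fetal liver sum Hk2 had -0.27 and -0.44, and Eno3 -0.25 and -0.35.

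Of 25 further glycolysis, glycogen and pyruvate genes 5 were called with somite number, among them liver pyruvate kinase Pklr (rho = 0.43) and the muscle mutase Pgam2 (0.30), which rose, and Pdha1, a subunit of pyruvate dehydrogenase (-0.22), which fell. Of 28 further hypoxia genes 5 were called, including the alpha subunit Hif3a (0.42) and Anxa2 (0.31), which rose, and the mitophagy receptor Bnip3l (-0.24), which fell.

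The F1 litters offered deeper libraries at 4 stages, with 41 to 43 somites in Cast × B6 litter 1, 46 to 48 in Cast × B6 litter 2, 48 to 50 in B6 × Cast litter 5 and 58 to 63 in B6 × Cast litter 3. Each group was 1 litter, so that litter and stage or cross cannot be told apart. Per the labels, Cast × B6 litter 2 was sequenced in runs hs1 and hs2 and the other litters in runs gaIIx and hs1, so that the 2 contrasts with litter 2 cannot be told apart from the run either. The 3 contrasts were tested with edgeR's quasi-likelihood test and Benjamini-Hochberg adjustment over 15271 genes, in which 38 members were tested, and they share litters 2 and 5. Between the Cast × B6 litters 15 members differed, 3 higher and 12 lower in the older litter 2, with 29.1% of all genes called (15% higher, 14% lower). The median log2 change was -0.37 over the members and -0.01 over all genes. Slc2a1 had 140, 161, 179 and 181 RPM in litter 1 and 112, 115, 129 and 141 RPM in litter 2. The litters met at 140 and 141 RPM, and the log2 change was -0.54 ± 0.08 (SE, edgeR adjusted p = 0.000228). Eno3 had 228, 229, 265 and 275 RPM against 149, 159, 179 and 183 RPM, with no overlap (log2 change -0.70 ± 0.11, edgeR adjusted p = 0.000504). The oxygen sensor Egln1 had 32.99, 34.1, 38.8 and 48.2 RPM against 13.9, 16.7, 25.2 and 25.2 RPM, again with no overlap (2.10-fold lower, edgeR adjusted p = 0.000745). The other members that fell were Pkm2 (1.70-fold), Epas1, Eno1, Hk1, Hk2 (1.498-fold), Slc2a3, Pfkm, Ankrd37 and Ldha. The last 4 of these lost their call when single F1 embryos were left out (Slc2a3 for 3 of 16 embryos, Pfkm for 6, Ankrd37 for 5 and Ldha for 6, with edgeR adjusted p up to 0.0571, 0.0835, 0.106 and 0.112).

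In the same contrast Tpi1, Pdk2 and Vegfa rose. Pdk2 had 27.3, 27.7, 27.8 and 28.9 RPM in litter 1 and 44.3, 45.8, 52.2 and 52.5 RPM in litter 2, which did not overlap (1.60-fold, edgeR adjusted p = 0.00479). Vegfa had 13.9, 16.1, 19.3 and 20.5 RPM against 25.2, 25.7, 27.5 and 28.7 RPM (1.41-fold, edgeR adjusted p = 0.00644). For Tpi1 the values were 27.6, 47.7, 52.2 and 77.1 RPM against 123, 142, 145 and 171 RPM (2.56-fold, edgeR adjusted p = 0.00235). Between the B6 × Cast litters Pdk2 had a log2 change of 0.04 ± 0.16 (edgeR adjusted p = 0.894). Hk1 rose with somite number in the N2 embryos but was lower in litter 2 (log2 change -0.44 ± 0.10, edgeR adjusted p = 0.0042). Summed erythroid markers had a median of 100399 RPM in litter 1 and 62422 RPM in litter 2, and their part in these differences was not tested.

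Between the B6 × Cast litters 8 members differed, 4 in each direction, with 15% of all genes called (7.14% higher, 7.84% lower in litter 3). Aldolase C (Aldoc), the brain isoform, rose most, from 6.22, 6.93, 7.26, 7.28 and 7.51 RPM in litter 5 to 16.9, 17.7 and 19.2 RPM in litter 3 (2.26-fold, edgeR adjusted p = 0.000933). Slc2a1 went from 111, 118, 119, 119 and 124 RPM to 162, 170 and 189 RPM (1.30-fold, edgeR adjusted p = 0.00566), so that it was higher in the older litter here and lower in the older Cast × B6 litter. Ankrd37 (1.63-fold) and Ndrg1, a stress-induced gene (1.43-fold), were also higher. Lower in litter 3 were Pkm2 (1.80-fold), the liver phosphofructokinase Pfkl (1.46-fold), Slc16a3 (1.58-fold) and Hk2. Hk2 had 33.4, 39.3, 39.8, 43.7 and 45.2 RPM in litter 5 and 24.01, 31.5 and 35.1 RPM in litter 3, with a small overlap (1.51-fold lower, edgeR adjusted p = 0.0189). Its call was lost without B6 × Cast replicate 1, 3 or 8 (edgeR adjusted p up to 0.0897), and those of Ndrg1 (0.0522) and Pfkl (0.0543) without replicate 2. Of the 38 members tested, Hk2 and Pkm2 were called lower in the older litter of both crosses (2 of the 12 and 2 of the 4 called lower), as were 1.99% of all genes, and 0 members were called higher in both (2.55%). Whether called or not, the estimate was lower in both crosses for 19 members (50%) and for 25% of all genes. The erythroid sum was 76016 RPM in litter 5 and 33077 RPM in litter 3, and fetal liver markers were 1722 and 4296 RPM.

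The crosses were compared at the nearest stages, B6 × Cast litter 5 against Cast × B6 litter 2. There were 5 members that differed, 2 higher and 3 lower in B6 × Cast, with 11.8% of all genes called (5.43% higher, 6.37% lower). Pfkl had 180, 192, 211, 223 and 240 RPM in B6 × Cast and 152, 157, 162 and 172 RPM in Cast × B6, with no overlap (1.36-fold, edgeR adjusted p = 0.0195). Eno2 had 17.5, 19.4, 19.6, 19.8 and 22.99 RPM against 14.0, 14.6, 15.0 and 15.8 RPM (1.39-fold, edgeR adjusted p = 0.0219). Slc16a1 was lower, with 2.90, 3.24, 3.72, 3.88 and 5.08 RPM against 5.73, 6.27, 7.56 and 8.75 RPM (1.81-fold, edgeR adjusted p = 0.00354), as were Egln1 (log2 change -0.60 ± 0.17) and Ankrd37 (-0.42 ± 0.13). Leaving out single embryos ended the call of Ankrd37 for 11 of 16 embryos, of Egln1 for 7 and of Eno2 without B6 × Cast replicate 6 or Cast × B6 replicate 5 (edgeR adjusted p up to 0.124, 0.126 and 0.0624). With scaling by library size alone the median of all genes shifted by -0.08, 0.12 and 0.22 on the log2 scale in the cross, Cast × B6 and B6 × Cast contrasts. Members called were then 1 higher and 3 lower, 4 higher and 9 lower, and 7 higher and 3 lower, and of all genes 497 and 1168, 3368 and 1090, and 2246 and 481.

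Further pathway genes were called in each contrast as well. Of 34 glycolysis, glycogen and pyruvate genes 2, 10 and 5 differed in the cross, Cast × B6 and B6 × Cast contrasts, and of 39 hypoxia genes 6, 8 and 6. The transferrin receptor Tfrc was higher in the older litter of both crosses (log2 change 1.40 ± 0.25 in Cast × B6 and 0.76 ± 0.24 in B6 × Cast).

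Allele-specific expression (ASE) was read from votes at SNPs as the B6 allele fraction (BAF), which is 0.5 when both alleles contribute equally. ASE was found for 6 members. Ldhb, Gpi1, Pdk2 and Pdk1 had more reads from the B6 allele, and Hk2 and Pkm2 more from the Cast allele. These 6 were called among 24 members tested in F1 and heterozygous N2 embryos (paired test of B6 and Cast votes, Bonferroni-adjusted p under 0.01 and BAF outside 0.45 to 0.55), where 18.9% of 9084 genes were called, 9.7% towards B6 and 9.17% towards Cast. Tpi1, Pgk1, Bnip3, Adm and Hif1a had no votes. Of the 6 called genes, 3 had near copies elsewhere in the genome (88.9% of windows for Gpi1, 55.6% for Ldhb and 33.3% for Pkm2). Pdk1, Pdk2 and Hk2 had none. Whether the discarding of reads with a close second hit changed the BAF was not tested.

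Ldhb (mm9 chr6:142438769-142456477) had a BAF of 0.814 ± 0.050 (SD, n = 8) in B6 × Cast, 0.809 ± 0.064 (n = 8) in Cast × B6 and 0.685 in pooled heterozygous N2 embryos. All 16 F1 embryos were on the B6 side, and the pooled BAF was 0.758. Gpi1 had 0.746 ± 0.084 and 0.734 ± 0.1002 in the crosses and 0.716 in N2. Smaller departures were found for Pdk2 (0.607 ± 0.023, 0.631 ± 0.041 and 0.573) and Pdk1 (0.582 ± 0.023, 0.563 ± 0.029 and 0.580). Hk2 leaned to Cast, with 0.383 ± 0.025, 0.433 ± 0.026 and 0.407. Adjusted p of the paired test over all genes, with 83 to 103 embryos per gene, were 2.14e-20 for Ldhb, 8.21e-07 for Gpi1, 1.75e-17 for Pdk2, 2.75e-06 for Pdk1, 5.64e-08 for Hk2 and 6.23e-10 for Pkm2. Pkm2 had 0.346 ± 0.104, 0.280 ± 0.108 and 0.104, but this rested on 898 votes among 818583 F1 reads, or 0.110 votes per 100 reads. Pfkl (pooled BAF 0.502) and Slc16a3 (0.532) passed the p threshold and lay inside the BAF limits. In embryos coded B6/B6 the BAF of the 6 genes was at least 0.997. The authors called genotypes from the B6 share of reads of these and neighbouring genes, so this value is no independent check. With F1 embryos alone Hk2 and Pkm2 were not called (12.2% of all genes). With F1 embryos and the N2 embryos of lanes A to I all 6 were called in the same direction (18.1% of all genes).

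**Figure D2:**
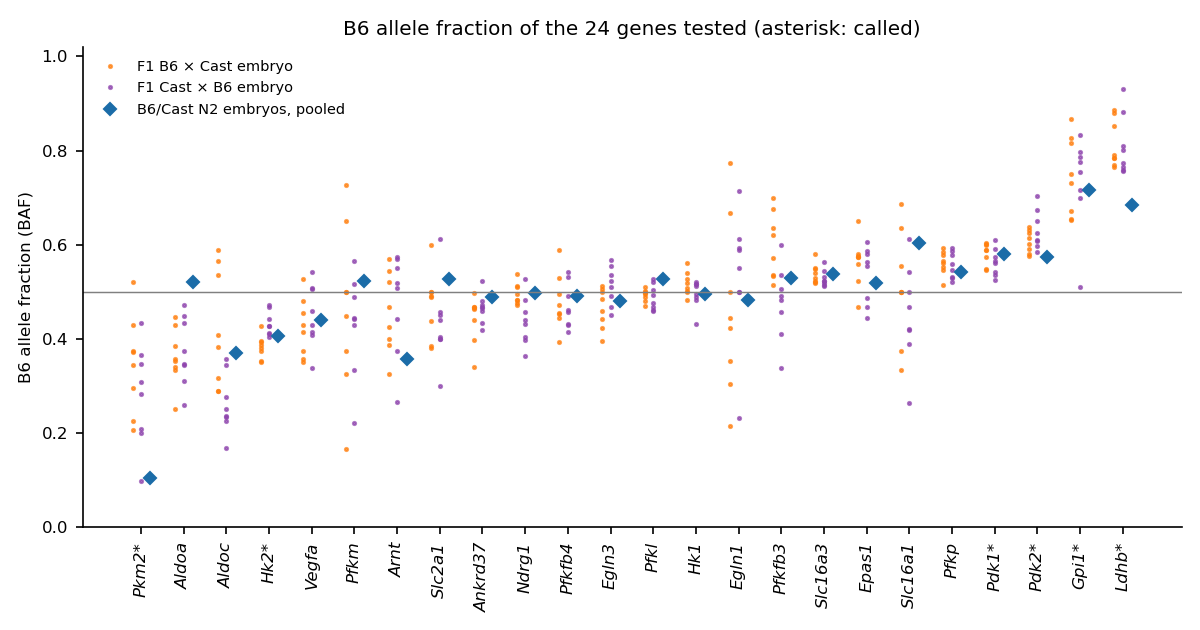
BAF of the 24 tested members in each F1 embryo by cross (dots) and pooled over heterozygous N2 embryos (diamonds), with a line at 0.5 and asterisks at genes called for ASE. Ldhb and Gpi1 lie farthest towards B6 and Pkm2 farthest towards Cast.

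Among 25 further glycolysis, glycogen and pyruvate genes 5 showed ASE. Among them the phosphatase Pdp2 (BAF 0.739) and Pdhx (0.567) leaned to B6, and the phosphoglucomutases Pgm1 (0.222) and Pgm2 (0.396) to Cast. Of 26 further hypoxia genes, the mitochondrial protein Higd1a (0.237) and Wsb1 (0.397) leaned to Cast.

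The level of each autosomal member was next compared between B6/Cast and B6/B6 N2 embryos at its own locus, after lane, sex, somite number and 15 principal components had been regressed out of log2(RPM + 1). Of 30 members 6 differed by the rank-sum test at a q under 0.01, 3 higher and 3 lower in B6/Cast embryos, where 27.8% of 9733 genes did (14.3% higher, 13.5% lower). With nothing regressed out 2 did (11.2% of all genes). Eno2 (mm9 chr6:124710071-124719691) had a median of 14.6 RPM in B6/Cast and 8.76 RPM in B6/B6 embryos, a difference of 0.35 ± 0.05 (SE, 72 and 75 embryos, q = 2.52e-09) after the regression. Hk1 had 33.1 and 28.4 RPM (0.21 ± 0.03, q = 1.96e-07) and Eno3 149 and 125 RPM (0.16 ± 0.03, q = 4.81e-07). Lower with a Cast allele were Gpi1, with 5.33 and 8.87 RPM (-0.33 ± 0.06, q = 2.94e-06), Pkm2, with 1874 and 2034 RPM (-0.20 ± 0.03, q = 2.82e-09), and Pdk2, with 55.7 and 64.6 RPM (-0.09 ± 0.03, q = 0.00475). The ranges of the genotypes overlapped for each of these genes. Near copies elsewhere in the genome were found for Gpi1 (88.9% of windows), Pkm2 (33.3%) and Hk1 (11.1%), and their part in these differences was not tested.

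These differences were set beside those that the BAF of the same gene would give if the B6 allele were read equally in both genotypes. The expected log2 values came from the BAF pooled over F1 and heterozygous N2 embryos. The observed ones came from N2 embryos alone, on log2(RPM + 1) after the regression. Their sizes are therefore not on the same scale, and mainly the signs can be set side by side. For Gpi1 the expected value is -0.56 and for Pdk2 -0.26, with the same sign as observed. Ldhb would give -0.60, and -0.26 ± 0.07 was found (q = 0.0147, not called). Hk2 would give 0.28 and had -0.13 ± 0.04 (q = 0.0102, not called), and Pkm2 would give 0.86 against -0.20. Pdk1 would give -0.19 and had 0.03 ± 0.06. The votes of Pkm2 come from few reads, and 2 of the 3 genes that were higher in B6/Cast embryos had too few votes for the ASE test (Eno2, with 6 votes in heterozygous B6 × F1 and 8.99 in heterozygous F1 × B6 embryos, and Eno3, 7 in all F1 embryos), whereas Hk1 had a pooled BAF of 0.505. In lanes A to I, Eno2, Hk1 and Eno3 stayed higher and Pkm2 lower, Ldhb and Pfkp were also called lower, and Gpi1 (-0.11) and Pdk2 (-0.02) were not called (22.7% of all genes). Of 23 further glycolysis, glycogen and pyruvate genes 8 differed and of 28 hypoxia genes 7, with Higd1a (0.72 ± 0.08) and Wsb1 (0.62 ± 0.08) higher and Pdp2 (-0.48 ± 0.07) lower in B6/Cast embryos.

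No dependence of BAF on the parent of origin was called. In an exact permutation test of mean BAF between the F1 crosses, 0 of 31 members passed, against 1.29% of 11903 genes (0.79% with the higher BAF in B6 × Cast and 0.504% in Cast × B6), and 5 had an unadjusted p under 0.05. The crosses also differed in litters, in mean somite number (52.4 in B6 × Cast and 44.3 in Cast × B6) and in the runs of litter 2. Parent of origin cannot be told apart from these in the F1 embryos. Hk2 came nearest, with a BAF lower by 0.0501 in B6 × Cast (exact p = 0.00202, adjusted p = 0.0807). Among heterozygous N2 embryos compared by mother 0 of 7 members were called (Mann-Whitney U test, 1.59% of all genes). Further genes of the glycolysis list gave 1 of 30 (Pdha1, on the X chromosome) and of the hypoxia list 0 of 35. F1 males (4 of 8 in B6 × Cast and 5 of 8 in Cast × B6) carry only the mother's X chromosome. The BAF of Pdha1, and of Pdk3 among the members, is thus set by inheritance in males, and the F1 test cannot decide parent of origin for them. The 11903 genes included X-linked ones. The BAF of 8 members had enough votes for Spearman's correlation with somite number, and 0 were called (0.299% of 3342 genes, 0.15% rising and 0.15% falling), with 2 at an unadjusted p under 0.05 (Pfkfb4, rho = -0.486, 25 embryos, and Hk2, rho = -0.322, 40 embryos).

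Coexpression was described across the 154 N2 embryos as the Spearman correlation of RPM after lane means had been taken out of the ranks. Of the 465 pairs of the 31 members, 125 (26.9%) were correlated positively and 41 (8.82%) negatively beyond rho of 0.202, the size at which pairs passed a Benjamini-Hochberg q of 0.05 over all 50065021 pairs of genes. The shares among all pairs were 21.7% and 11.1%, and the medians were 0.0793 for members and 0.0436 for all pairs. The points of each pair share their libraries and depths. With nothing regressed out 331 member pairs passed (40.3% of all pairs positive and 30.6% negative), and within flowcell 1 75 did (11% and 4.65%). In lanes A to I, 14.2% of member pairs were positive (13% of all pairs) and 5.81% negative (5.39%).

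The 5 pairs of highest rho were as follows. Pfkl and Pkm2, which catalyse regulated steps of glycolysis, had rho of 0.677 (lanes A to I 0.557), and Pfkl and the lactate exporter Slc16a3 0.621 (0.791). Aldoa and Tpi1, consecutive enzymes, had 0.633 (0.737), but Pearson's r on log2(RPM + 1) was 0.299. Slc2a3 and Kdm3a followed with 0.507 (0.461) and Hk1 and Aldoa with 0.497 (0.447). The lowest values were found for Pfkl and Ldhb (-0.477, lanes A to I -0.293), Pdk1 and Pdk2 (-0.470, -0.366) and Hk2 and Ldhb (-0.393, -0.355). Each of these 8 correlations had a permutation p of 1e-05 before adjustment. The pair of kinases that inhibit the same enzyme was thus negatively correlated between embryos of a lane, within flowcell 1 (-0.407) and within flowcell 2 (-0.601). Of 30 pairs per member, Slc2a3 and Pdk1 had the most positive partners (14 each), and Pdk2 the most negative ones (11). These are the extremes of the 31 members, and 21.7% of all pairs of genes were positive and 11.1% negative. Median rho over the pairs was 0.186 for Slc2a3 (lanes A to I 0.135), 0.167 for Pdk1 (0.0724) and -0.108 for Pdk2 (-0.0766). In the heat map Slc2a1, Epas1, Ldhb, Egln1, Pdk1 and Ankrd37 fell in 1 block.

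**Figure D3:**
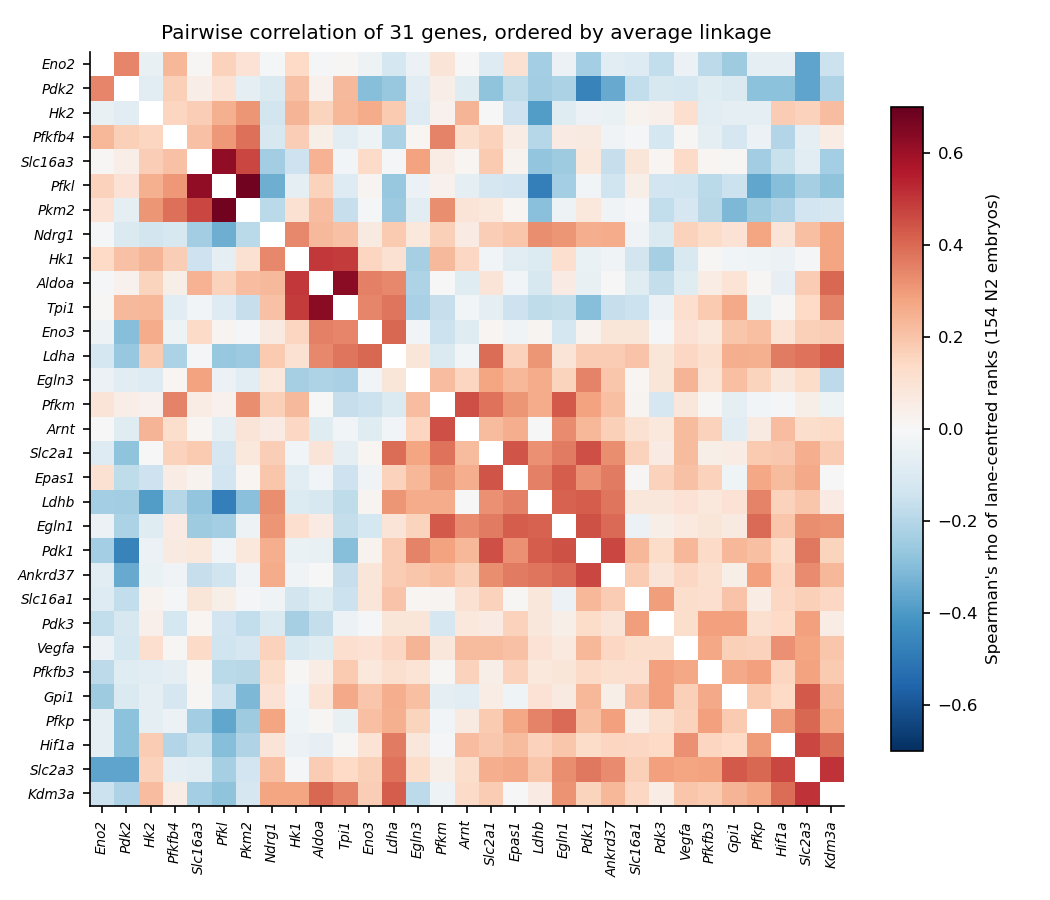
Lane-centred Spearman rho between the 31 members with at least 5 RPM across 154 N2 embryos, ordered by average linkage, with the colour scale from negative to positive rho. Pfkl, Pkm2 and Slc16a3 lie together, and Pdk2 is negative against Pdk1.

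Cell type markers moved with part of this pattern. Lane-centred rho with the summed neuronal markers was -0.55 for Pkm2 (lanes A to I -0.30), -0.54 for Pfkl (-0.41) and -0.38 for Slc16a3 (-0.43). With the fetal liver sum it was -0.20 for Pkm2 (-0.48), -0.40 for Pfkl (-0.65) and -0.45 for Slc16a3 (-0.57). Vegfa had -0.46 with the erythroid sum (-0.44). Eno3 had 0.06 with the muscle sum (0.22), whereas Eno2 had 0.48 (0.49). The part of these cell types in the coexpression was not tested. Of the genes outside the list, the most similar were Nnat for Tpi1 (0.807), Ndufb3 for Ldhb (0.800), Timm50 for Pkm2 (0.798), Thap11 for Kdm3a (0.792), Brd3 for Hk2 (0.790) and Mest for Egln1 (0.742), each over 154 embryos.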

How the data were processed

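3SEQ libraries of 16 F1 and 154 N2 whole embryos were analysed, with the mother, litter, somite number and lane taken from the sample labels. Raw counts of reads on the exons of each RefSeq gene were deposited by the authors without normalization. The authors had trimmed poly(A), mapped the reads with Bowtie2 to mm9 and to a Cast version of it carrying known SNPs, and discarded reads whose second-best hit lay within an edit distance of 3. Allele votes, deposited by the authors as estimated counts (expected counts that need not be whole), give the B6 and Cast votes per gene at SNPs. Genotype codes were deposited by the authors per gene and embryo from a hidden Markov model and read as B6/B6, B6/Cast or not called. Library depth was 15703888 to 38234229 reads in F1 and 245220 to 5370322 in N2 embryos. Of the per-sample columns, 8 matched no label and were not used, and 6 labelled embryos without genotypes entered only as an alternative. Each F1 embryo was read from 1 column, taken as the total over its sequencing runs, and counted as 1 sample.

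Counts were divided by depth (RPM), and genes with an N2 mean of at least 5 RPM were tested. The mother was tested with the Mann-Whitney U test (Bonferroni-adjusted p under 0.01), somite number with Spearman's correlation (Benjamini-Hochberg q under 0.05), ASE with a paired test of library-scaled votes (at least 20 votes per cross) and own genotype with the rank-sum test after lane, sex, somite number and 15 principal components, which took the place of the authors' PEER factors. For their own eQTL analyses the authors also removed retrotransposed genes and genes that lost more than a set share of reads to a close second hit. Neither removal was repeated here. F1 litters were compared with edgeR on counts after TMM scaling. All adjustment was over all genes tested. The members and the 2 lists of further glycolysis and hypoxia genes were chosen with earlier results of these data known. Named are members that passed a test (at most 8 by smallest p), a fixed set of 17 members whatever their values, the 5 highest and 3 lowest pairs, and up to 3 further pathway genes per direction, of which some are not reported here. Erythroid, neuronal, striated muscle, cartilage, fetal liver, endothelial and trophoblast markers were summed per embryo. Cartilage sums had a median of 684 RPM at 45 or fewer somites and 985 RPM at 53 or more, and endothelial sums 180 and 204 RPM. Lanes A to I were set apart after the data had been seen. Gene positions are those of mm9. Tests were tested on simulated data. Python 3.11.15, numpy 2.4.6, scipy 1.17.1, pandas 2.3.3, matplotlib 3.10.9, R 4.3.3, edgeR 4.0.16, limma 3.58.1, DESeq2 1.42.0, blastn 2.17.0+ and samtools 1.23.1 were used.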

Additional observations from a re-analysis of the deposited data

Results flagged for a closer look

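In 75 groups of 4 to 10 F1 embryos, the highest or lowest value was compared with the rest by Dixon's test, which flags about 1 in 20 groups by chance, and 3 groups had a value far from the others. Within B6 × Cast litter 5, 1 embryo had 11.3 RPM of Epas1 where the other embryos had 7.89 to 8.71 RPM. In the same litter 1 embryo had 18.6 RPM of Slc2a3, above the others at 10.6 to 12.9 RPM. In Cast × B6, 1 embryo had a BAF of 0.509 for Gpi1, below the others at 0.699 to 0.832.

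The difference between mothers was itself different between the flowcells for 2 of 30 members by an interaction term in a limma voom fit with litter as a random block and somite number as a covariate, where 9.25% of 9733 genes were called. The term is the log2 difference of B6 from F1 mothers on flowcell 2 minus that on flowcell 1. For Ldhb it was -1.77 ± 0.53 (SE, q = 0.0274), with means of 77.3 RPM for B6 mothers and 45.1 RPM for F1 mothers on flowcell 1 and 47.4 and 73.2 RPM on flowcell 2. For Vegfa it was -1.09 ± 0.31 (q = 0.0238), with 17.9 and 19.0 RPM on flowcell 1 and 33.3 and 59.2 RPM on flowcell 2. On flowcell 2 all 20 embryos of F1 mothers were in lanes J to N, against 36 of 59 of B6 mothers, so that the term cannot be told apart from these lanes. Within lanes J to N the means with B6 and F1 mothers were 52.8 and 73.2 RPM for Ldhb and 44.6 and 59.2 RPM for Vegfa. A difference in the slope on somite number between mothers was called for 0 of 31 members by edgeR's quasi-likelihood test with lane as a covariate, with 1 at an unadjusted p under 0.05 and 1 of 10007 genes called.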

How the results depend on the processing

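For the mother, 4 members were called, compared with 9 under Benjamini-Hochberg adjustment, 17 by edgeR with flowcell and somite number, 1 on flowcell 1 and 0 on flowcell 2, with litter means, and with litter means of lanes A to I. For somite number, 9 were called, against 0 with litter means and 18 with B6 mothers only. Slc2a3 (rho 0.0986) and Ldha (0.0408) turned positive with F1 mothers only, and Kdm3a (0.0950) and Aldoa (0.0641) in lanes A to I with lane regressed out. Own genotype gave 6 calls, or 2 with nothing regressed out. Coexpressed pairs numbered 166, or 331 with nothing regressed out, 75 on flowcell 1 and 93 in lanes A to I. The median lane share went from 59.8% to 47.5% in lanes A to I. When 1 embryo was left out, members called ranged from 2 to 6 (cross), 12 to 19 (Cast × B6 litters) and 6 to 11 (B6 × Cast litters). The lowest counts came without B6 × Cast replicate 6, Cast × B6 replicate 4 and B6 × Cast replicate 2. The cause of these changes was not tested. Over 811 alternative values of single members and pairs, 685 kept their direction and call, 122 kept the direction but lost the call, and 4 reversed. Of the 811, 448 came from leaving out single F1 embryos, and 403 of these were unchanged. For somite number 57 of 99 were unchanged, 38 lost the call and 4 reversed. For the mother 34 of 52 were unchanged and 18 lost the call. Alternatives with lanes A to I were chosen after the data had been seen. No paired analysis was possible because the replicate numbers of the labels only name embryos. The parent-of-origin test in the stage-matched litters alone was not run, since 5 against 4 embryos cannot pass the adjustment. Depth limits genes near 5 RPM in single N2 embryos.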
